A study of Mus musculus with 4 samples.

Results

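The Hox cluster genes were examined in sorted mouse marrow cells, labelled as long-term hematopoietic stem cells (LT-HSCs), from Control mice and from mice that lost Cpt1a in the blood system (KO). Members were chosen as protein-coding gene models named Hoxa, Hoxb, Hoxc or Hoxd with a number, and 38 of the 55401 gene models in the files are described here. Of these, 10 lie in the Hoxa cluster (GRCm38, chr6:52162417-52260880 from the first to the last member described), 10 in Hoxb (chr11:96194316-96368256), 9 in Hoxc (chr15:102921103-103036852) and 9 in Hoxd (chr2:74668310-74765142). CPT1A couples long-chain fatty acids to carnitine so that they can enter mitochondria for oxidation, and the study asked how its loss alters blood stem cells. Control mice were Cpt1a fl/fl without Cre, although the labels call them WT. KO mice were Cpt1a fl/fl with Vav1-Cre, a Cre driven by the Vav1 promoter, which is active throughout the blood system. The mice were on a C57BL/6 background, and the study's general methods give adult animals of both sexes aged 8 to 12 weeks. All cells were enriched for c-Kit and sorted as lineage-negative, EPCR+ c-Kit+ cells with CD150 and without CD48, and the study's text also calls the sequenced cells stem and progenitor cells. There were 2 Control and 2 KO libraries. Whether the replicates of a group were separate animals is not labelled, so the spread behind the p-values may be a technical one. An effect of the Cre itself and an effect of the deletion cannot be told apart, since the Control mice carried no Cre.

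Hox genes encode transcription factors that bind DNA through a homeodomain, and they sit side by side in clusters in the order in which they are used along the body axis. Low numbers (anterior genes) lie at the 3′ end of a cluster and high numbers (posterior genes) at the 5′ end, and genes of the same number in different clusters are paralogues. In blood formation the Hoxa genes, above all Hoxa9, and several Hoxb genes are known to be active in stem and progenitor cells and to be switched off as cells mature. Hoxa9 supports the renewal of stem and progenitor cells and drives leukemia with its partner Meis1, and Hoxb4 expands blood stem cells when overexpressed.

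The homeobox is the 180-base stretch that encodes the homeodomain. Windows of 60 bases from it, on the coding strand and read from the GENCODE M21 transcripts, are shown for Hoxa5 and Hoxa10, an expressed central and an expressed posterior gene, and for Hoxa13, the last gene of the Hoxa cluster, which had no count. They show how alike the coding sequences are among genes whose levels differ widely. Capitals mark the 18 bases that encode the core of the recognition helix, the part that reads the bases of DNA.
Hoxa5, chr6:52202638-52202697, minus strand: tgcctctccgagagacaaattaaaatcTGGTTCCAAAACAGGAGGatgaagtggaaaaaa
Hoxa10, chr6:52232560-52232619, minus strand: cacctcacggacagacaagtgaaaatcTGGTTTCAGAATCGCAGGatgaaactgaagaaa
Hoxa13, chr6:52258934-52258993, minus strand: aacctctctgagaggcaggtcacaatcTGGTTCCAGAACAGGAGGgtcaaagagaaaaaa
Of the 18 capital bases 13 were the same in all 3 windows, and of the 42 other bases 26 were. Against Hoxa10, the window differed at 16 bases in Hoxa5 and at 17 in Hoxa13.

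Over the whole homeobox, the 40 pairs of members with the same number shared 67.2% to 93.9% of bases (median 80.6%), and the 663 other pairs shared 46.1% to 88.9% (median 60.6%). The closest homeobox to that of Hoxa9 was Hoxd9, at 82.8% identity with a longest shared run of 17 bases. Hoxa7 was closest to Hoxa6 (88.9%, with a run of 47 bases), and the longest run shared by any pair was 52 bases, in Hoxa6 and Hoxb4. Across whole gene models, 0.646% of the 50-base words of Hoxa9 occurred in another gene model, and none of those of Hoxa5, Hoxa7 or Hoxa10. The largest shares were those of Hoxd3 and Hoxd4, which have 62.4% and 52.3% of their exon bases in common with other models on the same strand. Among the 9 members with a mean of 1 TPM or more they were those of Hoxa2 and Hoxa3, of which 15.0% and 8.01% are shared with the readthrough model Gm28308. The sources used here do not give the strand setting of RSEM, so reads of a member and of an antisense model that overlaps it may not be separated. Such overlap covers 52.9% of the exon bases of Hoxb3, 27.3% of Hoxb2, 25.4% of Hoxa3 and 20.4% of Hoxa7, and none of Hoxa5, Hoxa9, Hoxa10 or Hoxb4.

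The libraries held 20589218 and 23291747 estimated counts in Control and 34083159 and 33909781 in KO, so the KO libraries were the deeper ones. Cpt1a stood at 37.0 and 35.6 TPM in Control and at 11.5 and 19.2 TPM in KO, and it fell (edgeR quasi-likelihood test, log2 fold change -1.60, adjusted p = 0.00695). That call was not made with effective lengths as an edgeR offset (adjusted p = 0.368). Nor was it made with limma on TPM at pseudocounts of 1 and 0.1 (adjusted p = 0.496 and 0.476). The log2 fold changes there were -1.28 to -1.23. Among all genes tested these settings called only 4, 5 and 2 genes, and limma differs from edgeR in more than the use of length. TPM is transcript abundance per length as a share of the library. Of all genes tested, 0.451% had an adjusted p under 0.05 and were higher in KO, and 0.212% were lower. The 5 defining LT-HSC markers Procr, Hlf, Mecom, Slamf1 and Fgd5 were above 0 in every library, the 10 LT-HSC markers summed to 529 to 581 TPM in Control and 560 to 563 TPM in KO, and none of the 10 passed the test (for these lists an adjusted p under 0.05, whatever the fold). Markers of other blood cells differed between the groups. B lineage markers summed to 55.4 to 89.1 TPM in Control and 422 to 610 TPM in KO (8 of 8 passed as higher), and mast cell markers to 23.0 to 50.2 and 333.0 to 416 TPM (4 of 6 higher), with 2 of the 3 defining mast cell markers at 0 in each Control library. Erythroid markers summed to 1063 to 1146 TPM in Control and 490 to 543 TPM in KO (3 of 8 lower), neutrophil markers to 6518 to 9644 and 5054 to 5097 TPM (1 of 7 lower), and megakaryocyte markers to 134 to 182 and 87.7 to 115 TPM (0 of 5). Markers of stroma and endothelium, cell types that use many Hox genes, summed to 57.8 to 76.8 TPM in Control and 84.0 to 97.9 TPM in KO (1 of 8 tested passed as higher, Pdgfrb). Most of each sum was that of Runx2 (32.4 and 44.3 TPM in Control, 47.2 and 30.2 TPM in KO), Pdgfrb (11.5 and 13.9, 32.4 and 30.4 TPM) and Emcn (12 and 13.6, 14.65 and 21.5 TPM). Every other gene of the list was at 2.1 TPM or less in every library, so the sums do not give a share of stromal cells. Of the 5 defining ones 5 and 1 were at 0 in the Control libraries and 2 and 4 in the KO libraries. The part of stromal and endothelial cells in the Hox values was not tested. In these sorted samples, fewer cells of a type and less RNA per cell cannot be told apart.

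Transcripts of the Hox genes came almost wholly from Hoxa and from part of Hoxb. Of the 38 members 21 had a count in some library and 17 had none. A count was found in 8 of 10 Hoxa, 8 of 10 Hoxb, 4 of 9 Hoxc and 1 of 9 Hoxd genes. By position, these were 4 of 7 anterior genes (numbers 1 to 3), 11 of 15 central genes (4 to 8) and 6 of 16 posterior genes (9 to 13). A count was present in all 4 libraries for 10 members. The genes without a count were Hoxa11, Hoxa13, Hoxb1, Hoxb7, 5 Hoxc genes and 8 Hoxd genes. By counting error alone, a count of 0 allows a level of up to 0.0880 to 0.146 CPM (a gene's count scaled by the library total, in the same ratio for every gene). This floor was taken as 3 counts of a library's total. Replicates could differ by more than the floor, as Hoxa4 had no count in Control replicate 1 and stood at 1.12 CPM in Control replicate 2.

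**Figure D1:**
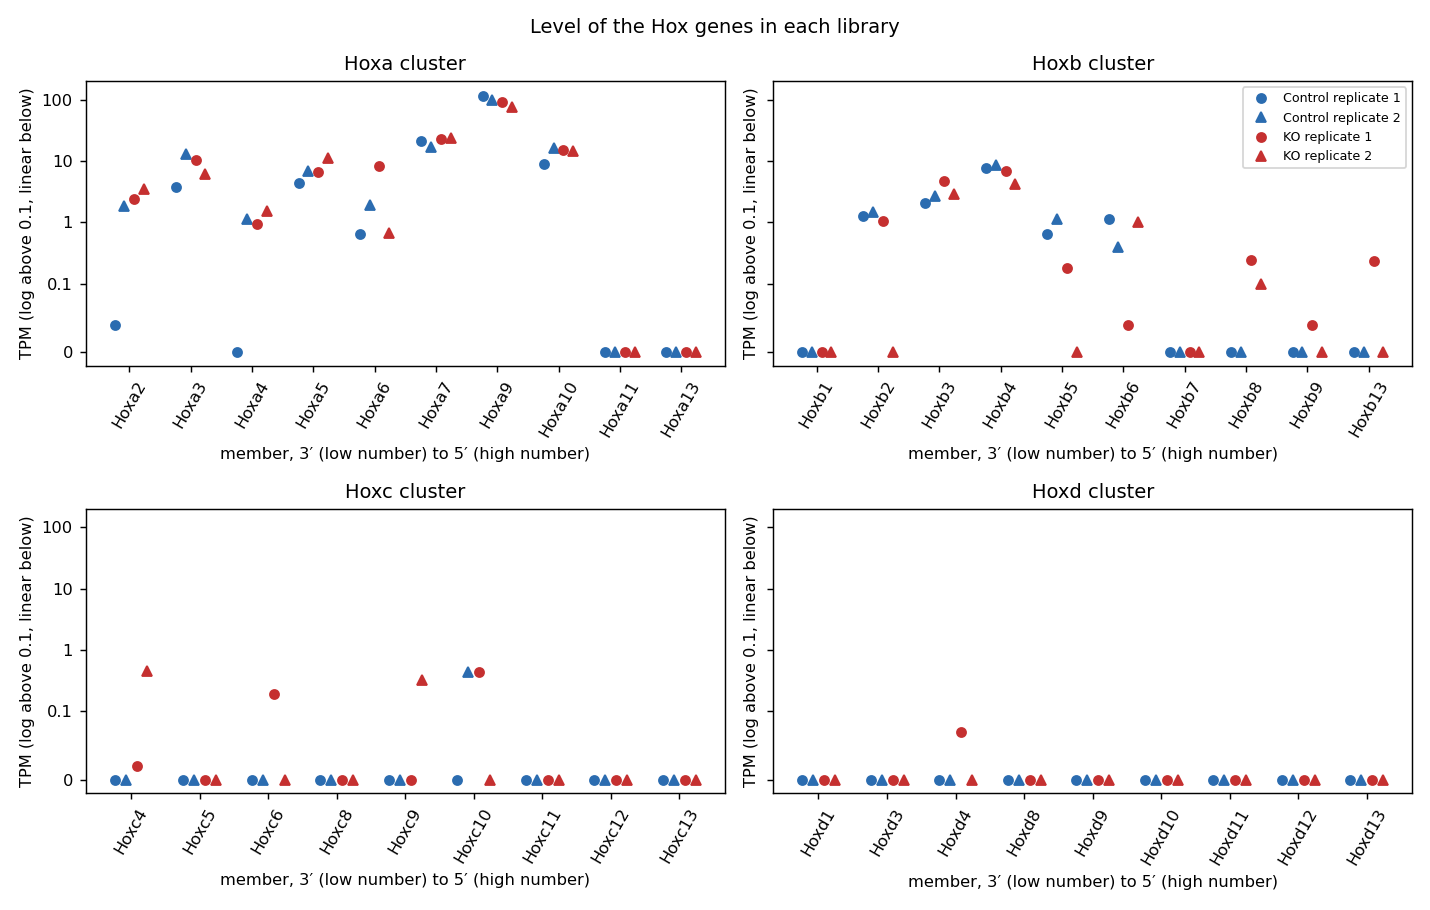
Level of each of the 38 Hox genes in TPM (vertical axis, logarithmic above 0.1 and linear below) in the 4 libraries (points), with 1 panel per cluster and members ordered from the lowest to the highest number. Hoxa9 is the highest member in every library, Hoxa11 and Hoxa13 are at 0 in all 4, and the Hoxc and Hoxd members stay under 1 TPM.

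Within the Hoxa cluster the highest levels lay on the 5′ side, from Hoxa7 to Hoxa10, and expression ended there. Hoxa9, at a mean of 94.96 TPM over the 4 libraries, ranked 1604th of 21897 protein-coding genes. Its neighbour Hoxa10 stood at 13.8 TPM, while Hoxa11 and Hoxa13, the next genes on the 5′ side, had no count in any library. The remaining posterior genes were near or at 0, and those with a count were Hoxb9, Hoxb13, Hoxc9 and Hoxc10, at 0.43 TPM or less in every library. The paralogues of Hoxa9 thus stood far under it, with Hoxb9 at 2 counts in KO replicate 1, Hoxc9 at 17 counts in KO replicate 2 and Hoxd9 at none.

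The 9 members at 1 TPM or more on average were Hoxa2, Hoxa3, Hoxa5, Hoxa6, Hoxa7, Hoxa9, Hoxa10, Hoxb3 and Hoxb4. In order of mean level, Hoxa9 was followed by Hoxa7 at 20.98 TPM, Hoxa10 at 13.8 TPM, Hoxa3 at 8.40 TPM, Hoxa5 at 7.21 TPM and Hoxb4 at 6.87 TPM. The libraries of Hoxa9 did not overlap with those of Hoxa7, and the lowest of Hoxa7 (16.6 TPM) lay just above the highest of Hoxa10 (16.5 TPM). Below that, neighbours in the order overlapped in their libraries. Hoxa10 was above Hoxa3, Hoxa5 and Hoxb4 within every library, and its lowest library (8.75 TPM) lay just above the highest of Hoxb4 (8.65 TPM). Hoxa3, Hoxa5 and Hoxb4 could not be ranked beyond their spread.

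Summed over all 38 members, the level was 166 and 172 TPM in Control and 170.3 and 147 TPM in KO, and the groups overlapped. The Hoxa cluster made up 91.4% to 93.9% of it in each library. Hoxa summed to 153 and 157 TPM in Control and to 156 and 138 TPM in KO. Hoxb summed to 12.7 and 14.3 TPM in Control and to 13.5 and 8.19 TPM in KO, again with overlap. Hoxc stayed at or under 0.78 TPM and Hoxd at or under 0.07 TPM in every library. The sums by cluster thus did not separate the genotypes in either of the active clusters.

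By position, the groups separated in opposite directions on the TPM scale. Posterior genes summed to 123 and 116 TPM in Control and to 106 and 91.4 TPM in KO, with both KO libraries below both Control libraries. Central genes summed to 35.3 and 36.8 TPM in Control and to 46.1 and 42.9 TPM in KO, with both KO libraries above. Neither separation held when the highest gene of the class was left out. Hoxa7 was not the only source of the higher central sums. Hoxa5 and Hoxa6 also had higher mean TPM in KO, while Hoxb4, Hoxb5 and Hoxb6 had lower means there. Without Hoxa9 the posterior genes summed to 8.75 and 16.9 TPM in Control and to 15.9 and 14.97 TPM in KO, and without Hoxa7 the central genes summed to 14.4 and 20.2 TPM in Control and to 23.5 and 18.96 TPM in KO, with overlap in both. Anterior genes summed to 7.13 and 19.1 TPM in Control and to 18.7 and 12.5 TPM in KO, and overlapped. On the CPM scale, which has no term for length, the posterior sums overlapped (108 and 126 CPM in Control, 109 and 84.3 CPM in KO), and the central sums were apart by less (46.5 and 47.4 CPM in Control, 47.7 and 52.5 CPM in KO). No test was made of these sums.

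**Figure D2:**
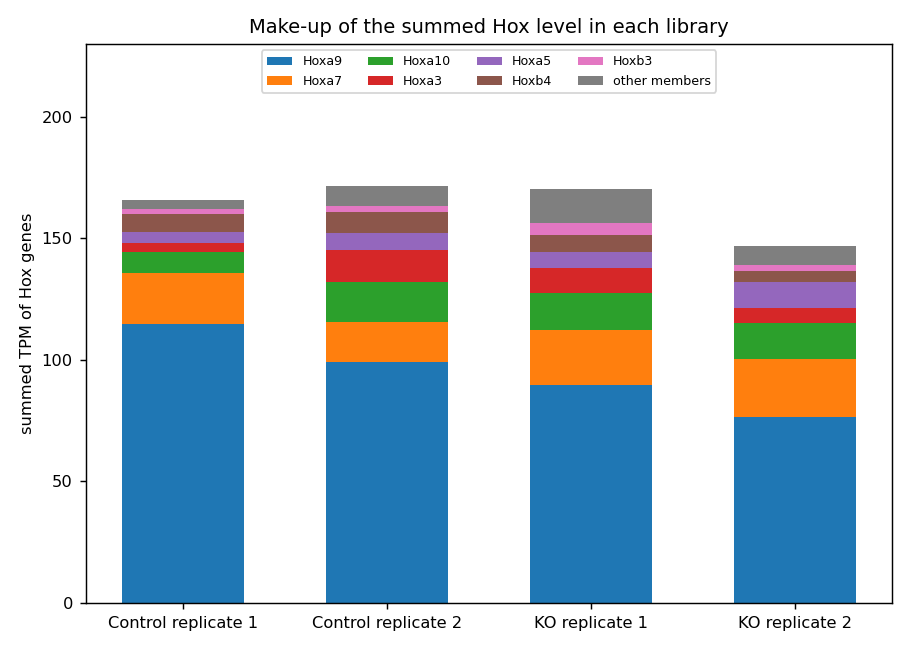
Summed TPM of all Hox genes in each library (bar height, linear axis from 0), divided into the 7 members with the highest mean level and all others (colours). Hoxa9 takes 69.2% and 57.6% of the sum in the Control libraries and 52.6% and 52.1% in the KO libraries.

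Hoxa9 (ENSMUSG00000038227, chr6:52223100-52231089, minus strand), the member that dominated the sum, stood at 115 and 99.0 TPM in Control and at 89.7 and 76.5 TPM in KO. Both KO libraries were below both Control libraries, and the means were 107 ± 11.1 (Control) and 83.1 ± 9.33 TPM (KO; SD, n = 2). In CPM it stood at 95.4 and 106 in Control and at 87.8 and 66.6 in KO, also without overlap. Its effective length, which RSEM takes from the mix of transcripts, was 1143, 1468, 1380 and 1211 bases in Control replicates 1 and 2 and KO replicates 1 and 2, so the order of the Control libraries differed between the scales. The log2 fold change was -0.40 (SE 0.164, 95% interval -0.77 to -0.02), with an unadjusted p = 0.0425 and an adjusted p = 0.460 by edgeR's quasi-likelihood test, and it did not pass. The interval is that of a level in KO between 0.585 and 0.988 times that in Control. Without KO replicate 2 the log2 fold change was -0.21.

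The other leading Hoxa genes did not follow Hoxa9. Hoxa7 (chr6:52214491-52221854), a central gene expressed in blood progenitors, stood at 20.9 and 16.6 TPM in Control and at 22.6 and 23.9 TPM in KO. The KO libraries were above the Control libraries in TPM, but in CPM they overlapped (26.6 and 21.1 in Control, 23.4 and 29.0 in KO). Hoxa10 (chr6:52231197-52240854), which lies next to Hoxa9 and is also active in progenitors and leukemia, stood at 8.75 and 16.5 TPM in Control and at 15.2 and 14.6 TPM in KO, with overlap. The log2 fold changes were 0.13 for Hoxa7 (95% interval -0.46 to 0.72) and 0.17 for Hoxa10 (-0.56 to 0.90), and neither passed (edgeR adjusted p = 0.951 and 0.942). Hoxa7, Hoxa9 and Hoxa10 were the 3 members whose interval excluded a change of 2-fold in either direction. Taken without Hoxa9, the Hoxa cluster summed to 38.4 and 58.01 TPM in Control and to 66.5 and 61.4 TPM in KO.

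Hoxa3 and Hoxa5 were expressed at intermediate levels with wide spread. Hoxa3 (chr6:52169062-52213336), an anterior gene needed for thymus and pharyngeal development, stood at 3.80 and 13.1 TPM in Control and at 10.5 and 6.19 TPM in KO, so that the Control replicates differed more from each other than from KO. The readthrough model Gm28308, which shares sequence with Hoxa3, moved alongside at 1.31, 9.88, 5.2 and 0.83 TPM in the same order of libraries. Hoxa5 (chr6:52201754-52204587) stood at 4.32 and 6.97 TPM in Control and at 6.59 and 10.97 TPM in KO, and the groups overlapped. Their log2 fold changes were 0.08 and 0.60 (95% intervals -1.22 to 1.38 and -0.51 to 1.71). That of Hoxa5 was 0.29 and 1.0004 without Control replicates 1 and 2 and 0.93 and 0.17 without KO replicates 1 and 2.

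Hoxa6 and Hoxa2 were low and unsteady. Hoxa6 (chr6:52206288-52208722) stood at 0.65 and 1.93 TPM in Control and at 8.27 and 0.67 TPM in KO, and the KO mean rested on replicate 1, with 123 counts against 10. Without that library its log2 fold change went from 1.73 to -0.97. Hoxa2 (chr6:52162417-52164831), a gene best known from the hindbrain and branchial arches, stood at 0.04 and 1.87 TPM in Control and at 2.37 and 3.44 TPM in KO. Both KO libraries were higher, but Control replicate 1 held 1 count and replicate 2 held 48, and the log2 fold change of 1.55 had a 95% interval of -2.13 to 5.23. Without Control replicate 2 it was 6.02, and without Control replicate 1 it was 0.59.

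In the Hoxb cluster only Hoxb3 and Hoxb4 reached a mean of 1 TPM, and they differed in direction. Hoxb4 (ENSMUSG00000038692, chr11:96318267-96321638) stood at 7.66 and 8.65 TPM in Control and at 6.95 and 4.2 TPM in KO, with both KO libraries lower. Its neighbour Hoxb3 (chr11:96323326-96347930) stood at 2.03 and 2.68 TPM in Control and at 4.71 and 2.86 TPM in KO, with both KO libraries higher. The log2 fold changes were -0.59 for Hoxb4 (95% interval -1.49 to 0.30, edgeR adjusted p = 0.664) and 0.56 for Hoxb3 (-0.62 to 1.75, adjusted p = 0.806). Neither passed, and the difference between the genes was not tested. With 1 library left out Hoxb4 ranged from -0.98 without KO replicate 1 to -0.28 without KO replicate 2, and Hoxb3 from 0.26 without KO replicate 1 to 0.82 without KO replicate 2, with 0.37 and 0.79 without Control replicates 1 and 2. More than 50 counts were assigned to both genes in every library.

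**Figure D3:**
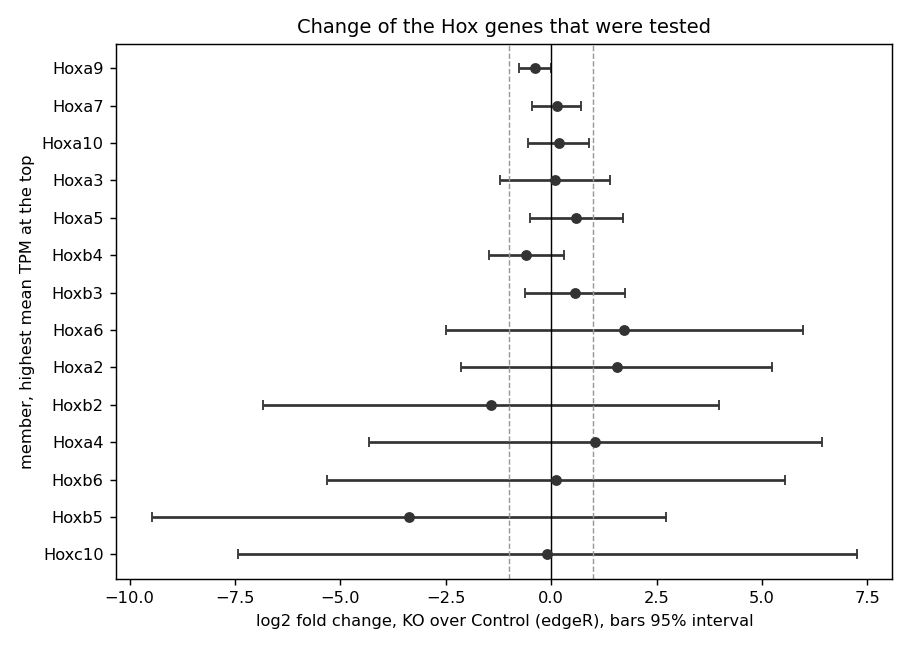
Log2 fold change of KO over Control from edgeR (points) with its 95% interval (bars) for the 14 Hox genes tested, ordered by mean TPM with the highest at the top, and with dashed lines at a change of 2-fold. The intervals of Hoxa9, Hoxa7 and Hoxa10 lie between the dashed lines, that of Hoxa9 lies just below 0, and those of the 7 lowest members extend past both lines.

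Of the 38 members 14 passed the filter on low counts and were tested (8 Hoxa, 5 Hoxb and 1 Hoxc), and none was called. Across the 14635 genes tested, 0.574% were called at an adjusted p under 0.05 with a change over 2-fold, and 0.663% had an adjusted p under 0.05. At an unadjusted p under 0.05, 1 of the 14 members passed (Hoxa9, lower in KO), against 10.4% of all genes tested, 4.61% lower and 5.81% higher. DESeq2 also called none of the members, with 1 at an unadjusted p under 0.05 and a lowest adjusted p of 0.116 (Hoxa9). The log2 fold change was above 0 for 9 of the tested members and below 0 for 5, with a median of 0.12, while 50.9% of all genes tested were above 0. In TPM, the groups did not overlap for 7 of the tested members, 4 lower in KO (Hoxa9, Hoxb2, Hoxb4 and Hoxb5) and 3 higher (Hoxa2, Hoxa7 and Hoxb3). This compares with 39.9% of all genes tested, 16.8% lower and 23.1% higher. In CPM the groups did not overlap for 4 lower and 2 higher members, against 42.0% of all genes tested, 18.3% lower and 23.6% higher.

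Several members with a mean under 1 TPM had counts in 1 replicate of a group and none in the other. Hoxa4 had 0 and 26 counts in Control and 30 and 50 in KO. Hoxb2 had 26 and 34 counts in Control and 35 and 0 in KO, and Hoxb5 had 16 and 31 in Control and 7 and 0 in KO. Hoxb6 had a count in every library, with 18 and 7 in Control and 1 and 42 in KO. Among members with at least 20 counts in a library, the other library of the group held none for 1 of 12 in Control (Hoxa4) and for 1 of 12 in KO (Hoxb2), against 5.50% and 4.23% of all protein-coding genes. For protein-coding genes with 20 to 50 counts in the higher library, the other library held none for 53.3% in Control and 43.7% in KO. Such splits were thus common at this level among all genes. The fitted changes of these members (log2 fold change -3.38 for Hoxb5, with a 95% interval of -9.48 to 2.71) were accordingly wide.

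A count in KO alone was found for 7 members and in Control alone for none. These were Hoxb8, Hoxb9, Hoxb13, Hoxc4, Hoxc6, Hoxc9 and Hoxd4, none of which passed the filter. For 5 of the 7, the counts came from 1 KO library. Hoxb8 had 11 and 6 counts in the KO libraries, and Hoxc4 had 1 and 19. The others had 2 to 17 counts in 1 library. The highest level among the 7 was 0.45 TPM. The number of members with a count was 12 and 14 in the Control libraries and 20 and 14 in the deeper KO libraries, and across all gene models it was 14358 and 14742 against 16657 and 15346. The higher number of members was that of KO replicate 1. KO replicate 2, nearly as deep (33909781 against 34083159 estimated counts), had 14, as did Control replicate 2. Between the groups, detection cannot be told apart from the difference in depth. How many of all genes had a count in 1 group alone is not given here, so the 7 members cannot be set against a share.

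**Figure D4:**
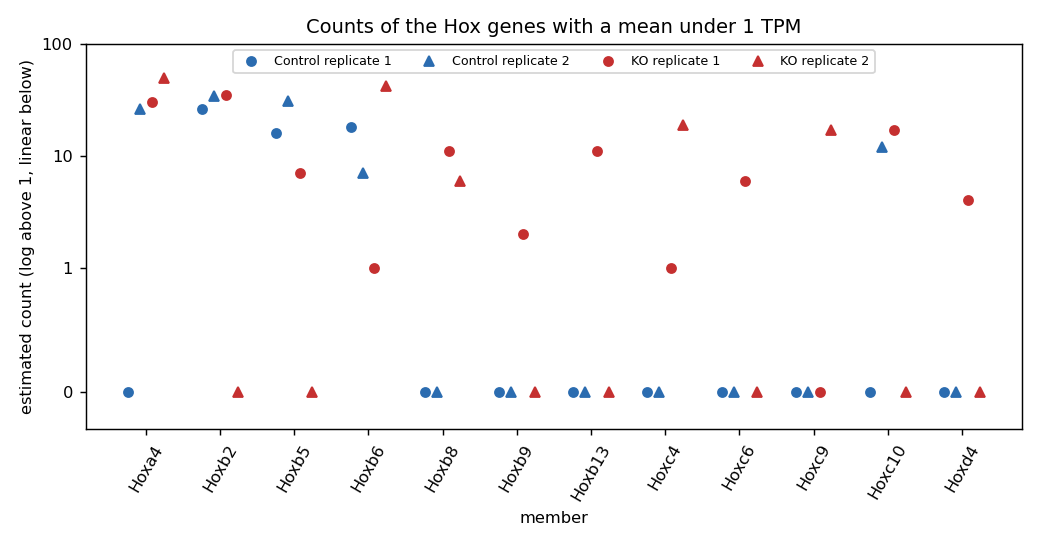
Estimated counts (vertical axis, logarithmic above 1 and linear below) in each of the 4 libraries (points) for the 12 Hox genes that had a count and a mean under 1 TPM. Of these, 7 have counts only in KO libraries, and the counts reach 50 at most.

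Few counts were assigned to non-coding gene models of the clusters. Of 38 such models inside the cluster spans given above, 13, several microRNA models among them, had an effective length of 0 and could receive no count, so nothing can be read from their 0. Of the other 25, 5 had a count and 1 was tested, Hoxaas3, an antisense RNA of the Hoxa cluster, which stood at 2.05 and 0 TPM in Control and at 0.58 and 2.08 TPM in KO. Hoxb3os, which overlaps Hoxb3, was at 0 in both Control libraries and in KO replicate 2 and at 0.16 TPM in KO replicate 1. Of the 16 protein-coding genes nearest to the clusters 12 were tested and none had an adjusted p under 0.05. At an unadjusted p under 0.05, against 5.81% higher and 4.61% lower of all genes tested, 2 were higher, Skap2 beside Hoxa and Cbx5 near Hoxc (log2 fold changes 0.29 and 0.22), and 1 was lower, Snx11 near Hoxb. Snx11 stood at 19.4 and 29.4 TPM in Control and at 17.3 and 10.99 TPM in KO, a log2 fold change of -0.87 (edgeR adjusted p = 0.305).

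Hox proteins bind DNA together with TALE homeodomain proteins of the Meis, Pbx and Pknox families. Of 9 such genes 7 were tested and none had an adjusted p under 0.05. Meis1, the partner of Hoxa9, stood at 87.7 and 100 TPM in Control and at 81.7 and 85.6 TPM in KO, with both KO libraries lower. Its log2 fold change was -0.25 (95% interval -0.52 to 0.009, edgeR adjusted p = 0.496). Pbx3, which is active with Hoxa9 and Meis1 in leukemia, stood at 4.30 and 3.60 TPM in Control and at 13.2 and 9.11 TPM in KO, with both KO libraries higher. Its log2 fold change was 1.61 (SE 0.407, edgeR adjusted p = 0.229), and it was the 1 cofactor of 7 with an unadjusted p under 0.05, against 10.4% of all genes tested. Pbx2 and Pbx4 (log2 fold changes 0.35 and 0.35) overlapped between the groups in TPM, while in CPM Pbx2 stood at 65.5 and 89.1 in Control and higher, at 93.7 and 105 in KO.

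Transcription of Hox genes is maintained by the histone methyltransferase KMT2A and its complex, by DOT1L, by acetyltransferases and by histone demethylases, and is induced in embryos by Cdx factors. Of 19 such genes 16 were tested, and none had an adjusted p under 0.05. Rbbp5, a core subunit of the KMT2A complex, stood at 37.7 and 28.8 TPM in Control and at 48.9 and 65.1 TPM in KO, a log2 fold change of 0.44 (edgeR adjusted p = 0.377), and was the 1 activator of 16 with an unadjusted p under 0.05, against 10.4% of all genes tested. Mllt3, a partner of DOT1L that is known to maintain blood stem cells, stood at 26.6 and 51.8 TPM in Control and at 24.8 and 13.2 TPM in KO, a log2 fold change of -0.35 (adjusted p = 0.536). Kmt2a itself was at 32.6 and 33.3 TPM in Control and at 38.03 and 30.6 TPM in KO, a log2 fold change of 0.05 (95% interval -0.22 to 0.32). Kdm6b and Kat6a had log2 fold changes of 0.34 and 0.15. The 3 Cdx genes had no count in any library.

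**Figure D5:**
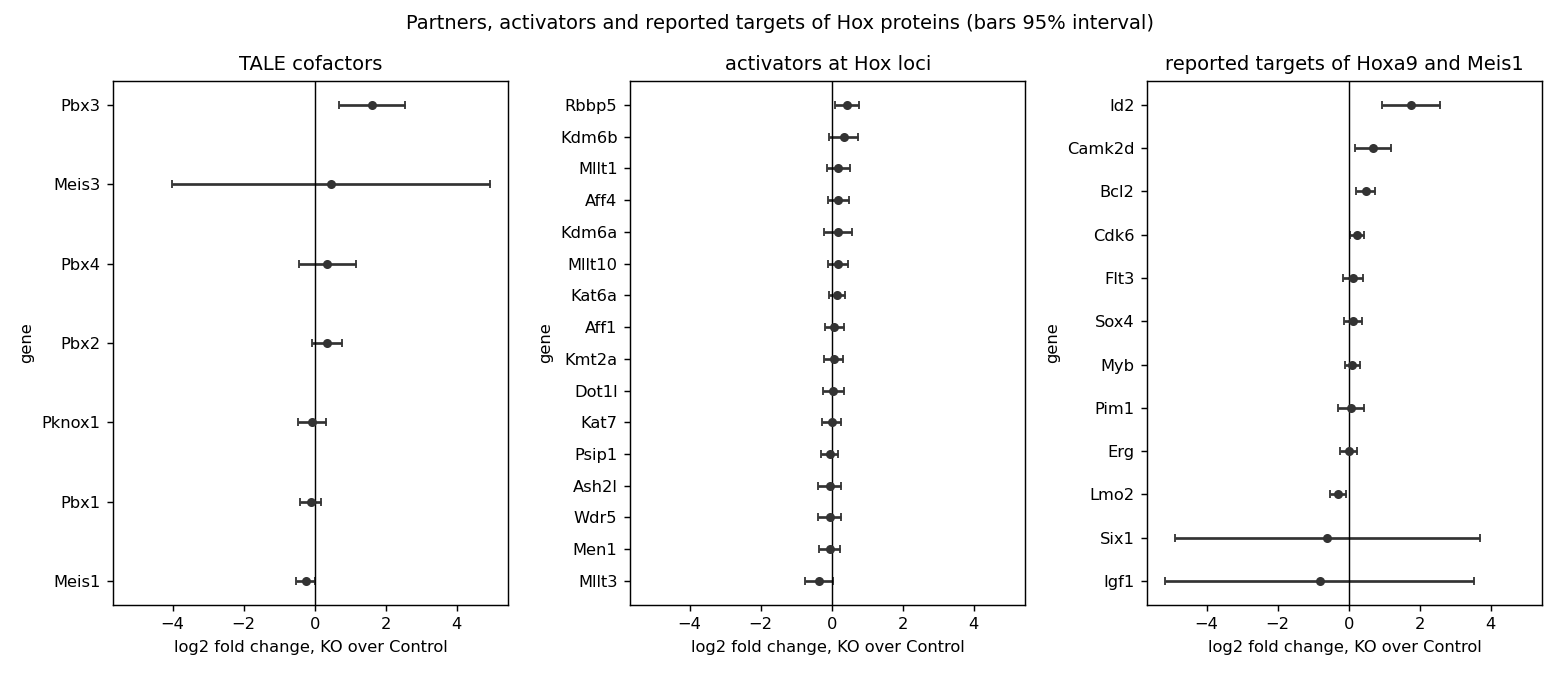
Log2 fold change of KO over Control from edgeR (points) with its 95% interval (bars) for the tested TALE cofactors (7 genes), activators at Hox loci (16 genes) and reported targets of Hoxa9 and Meis1 (12 genes). Most points lie near 0, with Pbx3 and Id2 farthest to the right, and no gene shown had an adjusted p under 0.05.

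The 12 genes listed as reported targets of Hoxa9 and Meis1 were all tested, and none had an adjusted p under 0.05. At an unadjusted p under 0.05, 4 were higher in KO (Id2, Bcl2, Camk2d and Cdk6) and 1 was lower (Lmo2), against 5.81% and 4.61% of all genes tested. Id2, an inhibitor of E proteins, stood at 6.91 and 7.37 TPM in Control and at 25.8 and 23.97 TPM in KO, a log2 fold change of 1.75 (SE 0.353, edgeR adjusted p = 0.119). Bcl2, which protects cells from apoptosis, stood at 18.8 and 18.8 TPM in Control and at 28.9 and 25.4 TPM in KO, a log2 fold change of 0.47 (adjusted p = 0.232). Lmo2, a bridging factor of stem cell transcription complexes, stood at 672 and 698 TPM in Control and at 544 and 579 TPM in KO, a log2 fold change of -0.30 (adjusted p = 0.349). Camk2d, a calcium-dependent kinase, stood at 11.5 and 18.3 TPM in Control and at 30.0 and 31.3 TPM in KO, a log2 fold change of 0.69 (adjusted p = 0.347). In TPM the groups did not overlap for any of these 4 genes, nor for 39.9% of all genes tested. The 4 were named for having the smallest p of the list, so a lack of overlap was likely beforehand. Myb, Flt3, Sox4 and Erg, each at 99.9 TPM or more in every library, had log2 fold changes between 0.01 and 0.13. Median log2 fold changes were 0.11 over these targets, 0.35 over the cofactors and 0.06 over the activators, against 0.009 over all genes tested.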

How the data were processed

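RNA of 2 Control and 2 KO libraries was sequenced after poly(A) selection and directional NEBNext Ultra II library preparation. STAR, RSEM and mm10 are named in the submitters' processing notes; versions, annotation and strand setting were not given in the sources used here. The deposited files hold unnormalized expected counts per gene, RSEM estimates that can hold fractions. The authors' files also hold TPM, effective lengths and posterior mean counts. GENCODE M21 (GRCm38) named 55141 of 55401 gene models and all members.

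Expected counts were rounded and tested with edgeR 4.0.16 (R 4.3.3): TMM, filterByExpr at a minimum count of 10 (14635 genes), quasi-likelihood F test with genotype as the only term, two-sided, with Benjamini-Hochberg adjustment over all genes tested. Calls needed an adjusted p under 0.05 together with a change over 2-fold. List members needed only the adjusted p, whatever the fold. In a test on simulated counts the fit recovered, on average, the changes it was given. Those counts had less spread between libraries, at a dispersion of 0.05 against edgeR's common dispersion of 0.222 for these data. Every change given was over 2-fold. How well smaller changes are found at the spread of these data was thus not tested. CPM is the expected count scaled to a fixed library total. The SE of a log2 fold change was worked back from the F statistic of this fit. The 95% intervals were set symmetrically around the change from that SE, so they are approximate. They include the spread between libraries, while floors of 3 counts cover counting error only, since reads carry no molecular identifiers. Alternatives were DESeq2 1.42.0, RLE normalization, no filter, effective lengths as an offset, posterior mean counts, limma 3.58.1 on log2(TPM + 1) and log2(TPM + 0.1), a replicate block and each library left out.

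Members at 1 TPM or more were described singly and others by counts, except those that differed by presence. Of each list up to 4 genes with the smallest p were named. Cdk6, Kmt2a, Myb, Flt3, Sox4, Erg, Hoxb3os, Gm28308, Pdgfrb, Runx2 and Emcn were added after their values were seen. The members and lists were chosen with earlier results of these data known. The naming rule finds 39 genes, and 1 of them is not reported here.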

Additional observations from a re-analysis of the deposited data

How the results depend on the processing

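No Hox gene was called in any of the 12 alternatives, and the lowest adjusted p in them was 0.105 (Hoxa2 without Control replicate 2). The log2 fold changes of 8 of the 14 tested members kept their sign in every alternative that gave a value. Hoxa9 ranged from -0.60 to -0.21. With all 4 libraries, its unadjusted p was not under 0.05 with effective lengths as an offset or with limma at either pseudocount. Its change was -0.48 and -0.30 without Control replicates 1 and 2 and -0.60 and -0.21 without KO replicates 1 and 2. With effective lengths as an offset Hoxa3 turned to -0.040 and Hoxb6 to -0.49, and Hoxb6 was -0.24 and -0.96 with limma at a pseudocount of 1 and 0.1 TPM. With 1 library left out, Hoxa3 ranged from -0.55 to 1.25, Hoxa6 from -0.97 to 2.74, Hoxa7 from -0.041 to 0.29, Hoxa10 from -0.10 to 0.52, Hoxb6 from -4.33 to 1.08 and Hoxc10 from -1.07 to 5.90. The log2 ratio of the summed TPM, KO over Control, was -0.08 for Hoxa and -0.32 for Hoxb, and with 1 library left out it ranged from -0.17 to 0.010 and from -0.72 to -0.0075, the lowest without KO replicate 1 and the highest without KO replicate 2. The cause of these changes was not tested.

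The number of genes called among all genes tested was 84, and it was 465 with DESeq2, 130 with no filter, 4 with effective lengths as an offset, 5 and 2 by limma at the pseudocounts 1 and 0.1, and 41 to 268 with 1 library left out. Where a group was left with 1 library, that library was assumed to vary like the other group. The groups share replicate numbers, but the deviations of libraries with the same number had a correlation of -0.02 over genes. No broad effect shared by number was thus seen, and whether the libraries were prepared in pairs is not labelled. With a replicate block 84 genes were called (54 higher and 30 lower, against 58 and 26), none of them a Hox gene, and Hoxb6 turned to -1.23. At this depth the 7 tested members with the lowest mean TPM, and Hoxa3, had intervals reaching past 2-fold in both directions, and the absence of a call there does not show that levels were equal.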
